A study of Mus musculus with 21 samples.

Results

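Hearts of mice with reduced Gata4, called G4D in the labels, were compared with wild-type hearts after transverse aortic constriction (TAC), by the arrays titled G4D_TAC (n = 6) and Wildtype_TAC (n = 6), which make up 12 of the 21 arrays of the series. In TAC a ligature narrows the aortic arch, here upstream of the left common carotid artery, and so loads the left ventricle with pressure. G4D mice carry 1 Gata4 allele that lacks the second exon, so the allele is present in every cell and not in the heart alone. The other 9 arrays, wild-type sham (n = 4) and G4D sham (n = 5), came from mice that had the same surgery with no handling of the aorta, and serve here for the genotype difference at baseline. The labels name no other allele or agent for any of the 4 groups, and give no age, strain, sex, time after TAC or batch. They name cardiac myocytes as the source and total RNA as the molecule, and do not say that the replicates are separate animals, so p-values measure only the spread between these samples, which may be technical.

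Gata4 is a zinc-finger transcription factor that binds GATA motifs and, with Nkx2-5, Mef2 and Tbx factors, drives heart muscle genes in the embryo and in the adult. A heart under pressure overload thickens, turns fetal genes of muscle back on, lays down matrix between its muscle cells and draws less on fatty acids for fuel. The design asks whether a modest loss of Gata4 changes the state of the heart at baseline and under this load.

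Every non-control probe set with 1 gene symbol and enough signal entered the comparison, which gave 13279 tested genes, each read by its brightest probe set. Levels are log2 values after quantile normalization between the arrays, differences are G4D TAC less wild-type TAC on that scale, and values after ± are standard errors unless called SD. Calls rest on limma with p-values adjusted by Benjamini-Hochberg over all tested genes, at a threshold of 0.05, and every adjusted p below is of that kind. The arrays are numbered W1 to W6 for wild-type TAC and G1 to G6 for G4D TAC, and ranges in brackets beside them are of the difference with any 1 array left out. The deposited medians of the 12 arrays lay between 4.37 and 5.33, and each array correlated at 0.977 or more with the average of the other arrays of its group. By an exact permutation test over the 924 arrangements (two-sided), deposited medians (4.96 ± 0.34 against 4.84 ± 0.29, SD, n = 6 each) gave p = 0.517, and the 3'-to-5' differences of the actin and Gapdh probe sets, signs of RNA quality, gave p = 0.245 and p = 0.571. The Y-linked gene Eif2s3y stood between 7.47 and 8.30 on all 12 arrays and the brightest Xist probe set at 5.56 or below. Myocyte markers had a mean level of 12.22 to 12.36 on the 12 arrays, but markers of fibroblasts (8.43 to 9.39), endothelium (8.16 to 8.67) and macrophages (7.21 to 8.06) were read as well, so the RNA labelled as myocyte also held transcripts of these cell types.

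A pair of probe sets reads Gata4, and neither differed past the threshold after TAC. Its level was 7.43 to 8.15 (median 7.80) in wild-type TAC and 7.64 to 8.14 (median 8.0) in G4D TAC, and the groups overlapped. The difference was 0.17 ± 0.10 (adjusted p = 0.552), with a 95% interval of −0.05 to 0.38, and on the dimmer probe set it was 0.07. Where these probe sets lie relative to the deleted exon was not known, so the genotype labels are not tested by them. Its relative Gata6, which heart muscle also keeps after birth, stood at −0.16 ± 0.10 (adjusted p = 0.542).

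After TAC 446 of 13279 genes (3.36%) differed between the genotypes, 278 higher (2.09%) and 168 lower (1.27%) in G4D. Of the called genes 27 were at least 2-fold higher and 14 at least 2-fold lower, and the median size of a called difference was 0.53 for the higher and 0.48 for the lower genes. The lowest array of one genotype lay above the highest of the other in 344 genes (2.59%), 234 higher (1.76%) and 110 lower (0.828%) in G4D, and 252 of these were called. The largest rises were those of Thbs4, Cilp and Nmrk2, and under the naming rule the largest falls those of Efnb3, Acot1 and Colec11. The higher side depended less on the scaling of the arrays than the lower side. In the values as deposited, which shift the median of all genes by 0.14, 64 genes were called, 56 higher (87.5%) and 8 lower, and after centring each array on its median 184, 153 higher (83.2%) and 31 lower, against 62.3% higher here. Of 56 gene lists 29, none with a median further than 0.131 from 0, had a median that changed sign in either setting. In both, 0 of the 446 genes changed sign, and 63 and 179 of them were called. Of the 106 called genes picked by the naming rule 64 rose, of which 32 and 49 were called under the same settings, and 42 fell, of which 4 and 13 were. The falls still called in the values as deposited were Efnb3, Acot1, Fbp2 and Rnf207, and median centring added Colec11, Klhdc8a, Pde1c, Car14, Gpr22, Kcnj3, Dsg2, H2-Aa and Kcne1.

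**Figure D1:**
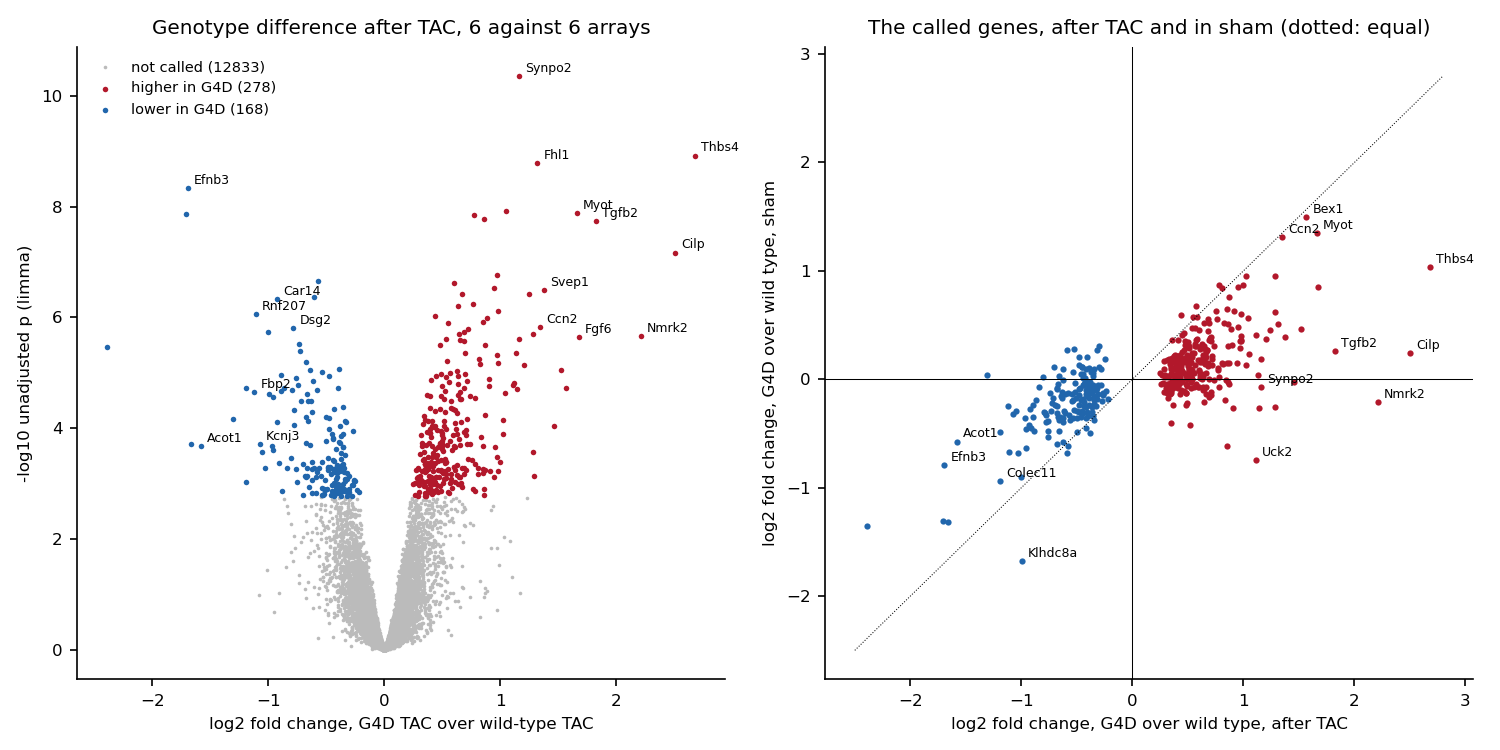
Left, the log2 difference between G4D TAC and wild-type TAC (x axis) against −log10 of the unadjusted limma p (y axis) for 13279 genes, with the 278 called higher in red and the 168 called lower in blue. Right, the difference after TAC (x axis) against that in sham (y axis) for the 446 called genes, most of which lie closer to 0 in sham than after TAC.

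The promoters of the genes with the largest differences were searched for the letters that Gata4 is known to bind, AGATAA or AGATAG, or the variants written TGATAA and also TGATAG, on either strand, from 250 bases before to 50 bases after the start of the gene (RefSeq, GRCm38.p6). Of the 30 genes with the largest rises and falls 22 had a promoter in the table, and 7 held a match. A match stood in 15.2% of the 277 promoters of called higher genes (220 of 278 genes found), in 25.8% of the 186 of called lower genes (131 of 168 found), in 20.1% of the 13589 of all tested genes and in 29.8% of all 32851 in the table. The windows below show the match of 4 of the 7 genes in capitals, 2 that rose and 2 that fell, on the strand of the gene. They are Svep1, a large adhesion protein outside cells, at chr4:58206673-58206789 on the minus strand, Fam124a, a gene of little known function, at chr14:62555495-62555600 on the plus strand, Fbp2, the gluconeogenic fructose bisphosphatase of muscle, at chr13:62858401-62858502 on the minus strand, and Colec11, a secreted lectin of the complement system, at chr12:28623353-28623458 on the minus strand. A match of letters is no proof of binding.
Svep1: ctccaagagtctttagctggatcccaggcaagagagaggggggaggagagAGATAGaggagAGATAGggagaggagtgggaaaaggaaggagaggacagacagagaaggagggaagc
Fam124a: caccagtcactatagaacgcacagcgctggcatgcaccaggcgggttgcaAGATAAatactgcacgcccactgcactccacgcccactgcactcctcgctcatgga
Fbp2: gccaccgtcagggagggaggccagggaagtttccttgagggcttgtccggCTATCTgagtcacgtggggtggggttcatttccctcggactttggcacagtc
Colec11: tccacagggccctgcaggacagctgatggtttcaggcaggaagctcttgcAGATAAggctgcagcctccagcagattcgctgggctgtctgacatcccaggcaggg
Svep1 holds 2 matches close together, while the match of Fbp2 reads as AGATAG on the opposite strand. The level of Svep1 was 5.63 to 6.74 (median 6.29) in wild-type TAC and 7.27 to 8.0 (median 7.67) in G4D TAC, and that of Fam124a 5.34 to 6.35 (median 6.18) and 7.02 to 7.58 (median 7.27). Every G4D array lay above every wild-type array in both genes, and they rose by 1.38 ± 0.19 (adjusted p = 0.000268) and 1.24 ± 0.17 (adjusted p = 0.000281).

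Matrix genes gave the largest rises. Of 24 tested matricellular and elastic fibre genes 11 (45.8%) were called higher, against 2.09% of all genes, 0 were called lower, and the median difference was 0.56, against −0.01 over all tested genes. This and the other lists were written with earlier results of these data known, so shares of called members are a description. Each list count is to be read beside 2.09% of all genes called higher and 1.27% called lower. Thbs4, which encodes thrombospondin 4, a matricellular protein of stressed muscle, was 6.35 to 6.97 (median 6.61) in wild-type TAC and 8.57 to 10.07 (median 9.36) in G4D TAC. The lowest G4D array thus stood above the highest wild-type array by more than the whole wild-type range. Thbs4 rose by 2.68 ± 0.26 (adjusted p = 7.37e-06), a 6.41-fold difference. Cilp, a matrix protein of cartilage and of scarred heart, was 7.06 to 8.02 (median 7.17) and 8.53 to 10.62 (median 9.87), with 1 wild-type array high and no overlap, and rose by 2.50 ± 0.31 (adjusted p = 8.14e-05). Comp, a thrombospondin that bridges collagen fibrils, was 4.60 to 5.21 (median 4.92) and 5.79 to 7.36 (median 6.31). Its groups were apart, and it rose by 1.52 ± 0.26 (adjusted p = 0.00204).

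Genes of microfibrils and elastic fibres were higher with more overlap between the arrays. Ltbp2, a microfibril protein of the latent TGF-beta binding family, was 4.89 to 6.88 (median 5.84) in wild-type TAC and 6.32 to 7.96 (median 7.36) in G4D TAC and rose by 1.46 ± 0.30 (adjusted p = 0.0083), although its groups overlapped. Mfap4, an elastic fibre protein that also marks fibroblasts, rose by 1.29 ± 0.32, Mfap5 by 0.90 ± 0.16, Fbln5, which helps to assemble elastic fibres, by 0.67 ± 0.16, and Mfap2 by 0.53 ± 0.13. Loxl1, which cross-links elastin, and Emilin1, which sits between elastin and microfibrils, rose by 0.49 ± 0.12 and 0.48 ± 0.11. Postn, which encodes periostin and is made by activated fibroblasts, did not pass, at 0.92 ± 0.27 (adjusted p = 0.0703), with a low G4D array at 9.90 and a high wild-type array at 11.11. Single arrays ended some of these calls. Mfap4 lost its call without W1, W3, W6, G1, G2, G5 or G6 (1.12 to 1.42). Fbln5 did so without W1, W2, W3, W6, G1, G2 or G5 (0.55 to 0.78), and Mfap2 without W1, W3, W5, G1, G2 or G3 (0.47 to 0.59). Loxl1 did so without W1, W2, W3, W6, G1, G2, G5 or G6 (0.43 to 0.58) and Emilin1 without W6, G1 or G6 (0.43 to 0.56), and 7 of the 24 genes were called without G4D TAC array 1. In the values as deposited the calls of Thbs4, Cilp, Comp, Ltbp2, Mfap4 and Mfap5 remained.

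Most collagen chains lay above 0, but few were called. Of 21 chains 20 had a difference above 0, with a median of 0.39, but 2 (9.52%, against 2.09% of all genes) were called higher. Col8a1, a short-chain collagen of vessels and injured heart, was 8.84 to 9.64 (median 9.12) in wild-type TAC and 9.32 to 10.60 (median 10.46) in G4D TAC. Of the G4D arrays 5 lay above the wild-type arrays and the sixth, array 4, at 9.32, among them. Col8a1 rose by 1.12 ± 0.20 (adjusted p = 0.00269) and Col6a2, of the beaded filaments around cells, by 0.49 ± 0.10 (adjusted p = 0.00971). Col1a1, the main fibrillar collagen, was 9.28 to 10.78 (median 10.19) and 9.87 to 11.33 (median 10.66), and its difference of 0.53 ± 0.26 (adjusted p = 0.393) was within the spread of the arrays. G4D TAC array 4 was low and wild-type TAC array 4 high across this list, and 7 chains were called without the former and 5 without the latter. In the values as deposited 1 chain was called, Col8a1.

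Among proteoglycans, which fill the matrix and bind growth factors, 3 of 11 (27.3%, against 2.09% of all genes) were called higher, and the median was 0.23. Vcan, a large proteoglycan of growing and injured tissue, rose by 0.78 ± 0.19, Bgn, a small one that binds collagen, by 0.55 ± 0.13, and Prelp by 0.39 ± 0.10. These 3 calls each ended without several arrays. They were lost in Vcan without W1, W2, W3, G1, G2 or G3 (0.64 to 0.93), Bgn without W1, W6, G1, G2 or G6 (0.46 to 0.64) and Prelp without W1, W3, W6, G1, G2, G5 or G6 (0.33 to 0.46). None of the 3 was called in the values as deposited. Of 20 matrix proteases and inhibitors 0 were called by limma, with Timp1, an inhibitor of matrix proteases, at 0.50 ± 0.29 and Mmp2 at 0.37 ± 0.15. At an unadjusted p under 0.05 the count was 1.

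**Figure D2:**
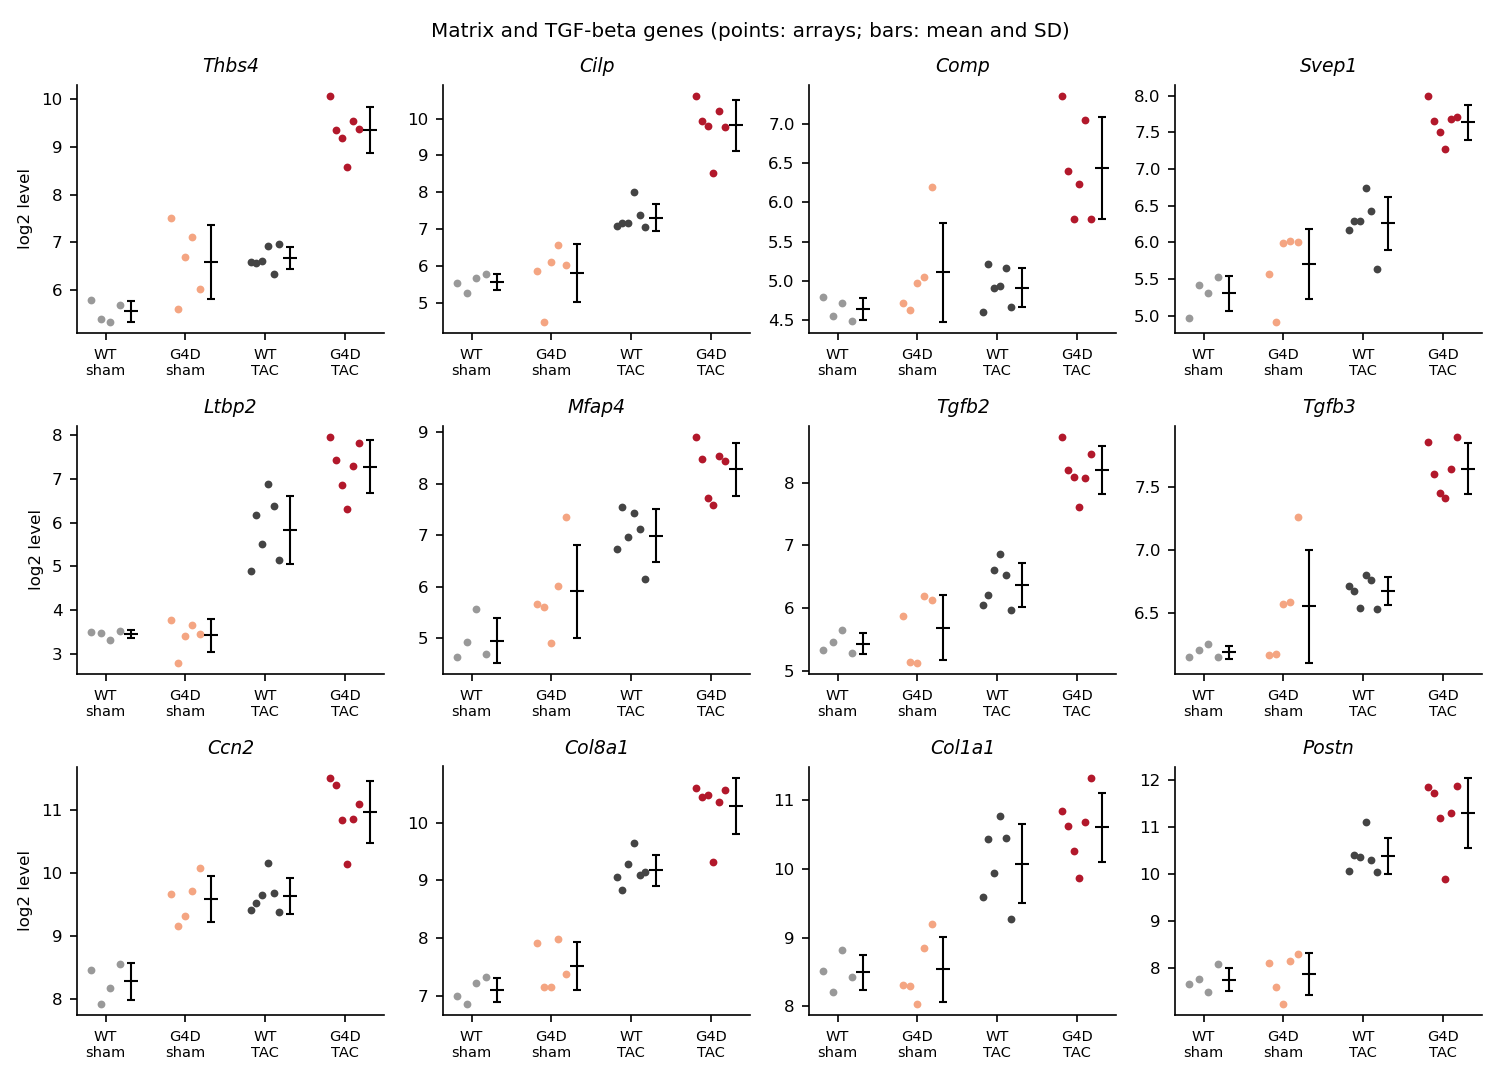
Log2 level (y axis) of 12 matrix and TGF-beta genes on each array of the 4 groups (x axis), with the mean and SD of each group beside its points. Thbs4, Cilp, Comp, Svep1, Mfap4, Tgfb2 and Tgfb3 are apart between the TAC groups, while Ltbp2, Ccn2, Col8a1, Col1a1 and Postn overlap.

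The ligands of the TGF-beta pathway were split. Tgfb2, a ligand that drives matrix production, was 5.96 to 6.86 (median 6.37) in wild-type TAC and 7.61 to 8.73 (median 8.15) in G4D TAC. All G4D arrays were above all wild-type arrays, and Tgfb2 rose by 1.83 ± 0.21 (adjusted p = 2.4e-05), or 3.54-fold. Tgfb3 rose by 0.98 ± 0.14 (adjusted p = 0.00044), also without overlap, while Tgfb1 stood at 0.08 ± 0.11 (adjusted p = 0.878). Ccn2, a matricellular growth factor that the pathway and YAP both switch on, was 9.38 to 10.17 (median 9.59) and 10.15 to 11.52 (median 10.98), with 1 overlapping pair of arrays, and rose by 1.34 ± 0.20 (adjusted p = 0.000677). Of 24 genes of the pathway these 3 were called higher (12.5%, against 2.09% of all genes) and 0 lower, with a median of 0.09. Receptors and Smads did not pass, with Tgfbr1 at 0.12, Tgfbr2 at 0.14 and Smad3 at 0.09, and the counts were 5 higher and 1 lower without G4D TAC array 4 and 3 and 1 without wild-type TAC array 6. In the BMP and activin list 0 of 18 were called by limma and 4 had an unadjusted p under 0.05. Calls in this list numbered 1 without G4D TAC array 3 or 4 or wild-type TAC array 2 or 4, 2 without wild-type TAC array 5, and 1 in the values as deposited and after median centring. Fstl3, which binds activin and myostatin outside cells, had groups that did not overlap, at 3.73 to 5.11 (median 4.66) and 5.22 to 6.07 (median 5.90). It missed the threshold at 1.23 ± 0.34 (adjusted p = 0.0523). Its adjusted p was 0.0119 in the values as deposited, 0.0309 after median centring and 0.0102 with the 12 TAC arrays fitted alone. The mean of its other arrays was below 4.35, the lowest mean level admitted to the test. Fstl3 thus entered the test only through its G4D TAC arrays, and these values are no support for a rise of its list. Of 12 YAP and TEAD targets 2 were called higher (16.7%, against 2.09% of all genes), Ccn2 and its relative Ccn1 at 0.54 ± 0.12 (adjusted p = 0.0135).

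The list of integrins, the receptors by which cells hold the matrix, and of the adhesion plaque had 3 of 20 genes called higher. None was called lower, and 2.09% of all genes were called higher. Itga9, a receptor for tenascin and other matricellular proteins, was 6.97 to 7.60 (median 7.25) in wild-type TAC and 7.78 to 8.0 (median 7.92) in G4D TAC, and rose by 0.61 ± 0.12 (adjusted p = 0.00537) with no overlap. Itgb5, which pairs with the alpha v chain to activate latent TGF-beta, rose by 0.51 ± 0.10. Itgbl1, a secreted integrin-like protein, rose by 0.97 ± 0.23, or 0.86 to 1.13 with 1 array left out, its call ending without W6, G1 or G2.

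Markers of fibroblasts moved in part. The mean level of the 18 markers was 8.43 to 9.15 in wild-type TAC and 8.86 to 9.39 in G4D TAC, so the groups overlapped. Of the 18 markers 4 (22.2%, against 2.09% of all genes) were called higher and 0 lower, with a median of 0.24. Besides Mfap4 these were Serpinf1, a secreted serpin, at 0.97 ± 0.13 (adjusted p = 0.000189), Pdgfrl at 0.95 ± 0.24 and Fap, a surface protease of activated fibroblasts, at 0.76 ± 0.18. General fibroblast genes stayed under the threshold, with Pdgfra at 0.26, Dcn at 0.23 and Tcf21 at 0.04. In bulk RNA more cells of a type and more RNA per cell cannot be told apart, and the part of the marker levels in the matrix genes was not tested. The calls of Pdgfrl (0.77 to 1.10) ended without W3, W5, W6, G1, G2, G5 or G6 and that of Fap (0.66 to 0.88) without W6, G1 or G5. The count of 4 fell to 1 without G4D TAC array 1 or 5 or wild-type TAC array 6 and to 2 without G4D TAC array 2 or 6 or wild-type TAC array 3. In the values as deposited Mfap4, Serpinf1 and Fap were called.

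Among other cell types, smooth muscle and pericyte markers had 2 called higher of 11 (18.2%, against 2.09% of all genes), both without overlap. They were Acta2, the smooth muscle actin that activated fibroblasts also make, at 0.81 ± 0.20 (adjusted p = 0.0251), and Cspg4, a pericyte proteoglycan, at 0.66 ± 0.12 (adjusted p = 0.00373). Myh11, the myosin of smooth muscle, stood at −0.16 ± 0.24. The median of this list was −0.03, with 0 called lower and 7 of the 11 markers below 0. The call of Acta2 ended without W1, W3, W6, G1 or G2 (0.76 to 0.87), and that of Cspg4 in the values as deposited. None of 16 endothelial and 17 macrophage markers was called by limma, and 0 had an unadjusted p under 0.05. Vwf, a clotting factor of endothelium, stood at 0.35 ± 0.25 and the complement gene C1qb at −0.30 ± 0.15. Lymphocyte, erythroid, adipocyte, mesothelial, skeletal muscle and nerve markers, with 3 or 4 tested genes each, had no call either, and 1 of them, the mesothelial keratin gene Krt18, had an unadjusted p under 0.05, at 0.69 ± 0.20. The mean of Krt18 was below the filter at 4.35 in each of the other groups, so it entered the test only through its G4D TAC arrays. Its p is therefore no support for a rise of mesothelial markers.

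The list of fetal and hypertrophic genes of muscle had the largest share of calls. Of 14 tested members 8 (57.1%) were called higher, against 2.09% of all genes, 0 were called lower, and the median difference was 0.80. The list was written with earlier results of these data known, so this share is a description. Its mean level was 10.11 to 10.33 in wild-type TAC and 10.92 to 11.45 in G4D TAC. Nmrk2, a muscle enzyme of the path from nicotinamide riboside to NAD, was 6.22 to 7.65 (median 6.57) in wild-type TAC and 8.34 to 9.62 (median 8.97) in G4D TAC. The groups were apart, and Nmrk2 rose by 2.21 ± 0.34 (adjusted p = 0.000803). Fhl1, a LIM protein of the sarcomere that senses stretch, was 10.52 to 10.99 (median 10.71) and 11.61 to 12.27 (median 12.08), and Rcan1, a feedback inhibitor of calcineurin, 8.74 to 9.82 (median 9.30) and 10.03 to 11.22 (median 10.65). Both were higher on every G4D array than on any wild-type array and rose by 1.32 ± 0.13 (adjusted p = 7.37e-06) and 1.28 ± 0.20 (adjusted p = 0.000758). Uchl1, a deubiquitinase of neurons and failing muscle, rose by 1.16 ± 0.18 (adjusted p = 0.000838). Enah, an actin regulator, rose by 0.72 ± 0.11 (adjusted p = 0.000692), and Xirp1, a Xin-repeat protein of the intercalated disc, by 0.52 ± 0.11 (adjusted p = 0.00824).

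The classic markers of hypertrophy were not called in the fit of all 21 arrays. Nppa, the atrial natriuretic peptide gene, was 11.55 to 12.22 (median 11.83) in wild-type TAC and 11.63 to 12.79 (median 12.53) in G4D TAC, and its difference was 0.55 ± 0.33 (adjusted p = 0.541). G4D sham array 5 enters this error: it stood at 12.69 for Nppa and 9.81 for the mean of the atrial marker list, against 9.88 to 10.51 and 6.78 to 6.95 on the other 4 G4D sham arrays, and was also high in adipocyte markers. Without it, an alternative chosen after seeing the data, the error of Nppa was 0.18 (adjusted p = 0.101), and 454 genes were called in all. Nppb, the brain natriuretic peptide gene, was 11.52 to 12.04 (median 11.85) and 12.16 to 12.51 (median 12.27). These groups did not overlap, yet the difference of 0.48 ± 0.20 (adjusted p = 0.268) missed the threshold, and in sham G4D ran from 9.62 to 11.28. With the 12 TAC arrays fitted alone Nppb and Myh7 were called (adjusted p = 0.014 and 0.0189) and Nppa was not (adjusted p = 0.134). For Myh7, the slow myosin of fetal ventricle, the difference was 0.92 ± 0.34 (adjusted p = 0.189) with overlapping arrays. Acta1, the skeletal actin, stood at 0.29 ± 0.24 (adjusted p = 0.722) and Ankrd1 at 0.28 ± 0.13 (adjusted p = 0.359). Of 8 genes for natriuretic peptides, their processing and receptors 1 was called, Npr3, the clearance receptor, at 0.76 ± 0.20 (adjusted p = 0.0414). Its groups did not overlap, and its adjusted p was 0.00865 without G4D sham array 5, but its call ended without any 1 of 11 TAC arrays, W1, W2, W3, W4, W5, W6, G1, G2, G3, G4 or G5 (0.66 to 0.82), and in the values as deposited.

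Several genes of the Z-disc, which anchors thin filaments and signals stretch, rose. Of 30 sarcomere and Z-disc genes 6 were called higher and 2 lower, and the median was 0.01. Myot, which encodes the actin cross-linker myotilin, was 9.03 to 9.52 (median 9.20) in wild-type TAC and 10.65 to 11.11 (median 10.93) in G4D TAC. It was higher on all 6 G4D arrays by at least 1 unit and rose by 1.66 ± 0.18 (adjusted p = 2.35e-05). Synpo2, an actin-bundling protein of the Z-disc, was 9.26 to 9.41 (median 9.36) and 10.21 to 10.84 (median 10.47), with the lowest adjusted p of the named genes, and rose by 1.16 ± 0.09 (adjusted p = 5.83e-07). Its probe sets disagree: the next brightest gave 1.27 ± 0.18, but another above the filter gave −0.03 ± 0.10 and a dim one −0.07 ± 0.19. Its relative Synpo2l rose by 0.87 ± 0.14 (adjusted p = 0.000946). The LIM protein gene Pdlim7 rose by 0.73 ± 0.14 (adjusted p = 0.00351) on its brightest probe set, but its others gave 0.09 ± 0.22 and 0.06 ± 0.10. Des, the intermediate filament that ties Z-discs together, rose by 0.67 ± 0.09 (adjusted p = 0.000281), and Flnc, muscle filamin, by 0.54 ± 0.09 (adjusted p = 0.00156). The groups of all 6 genes did not overlap, and Des and Flnc lost their calls in the values as deposited.

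Of 16 myocyte markers 1 was called, Tcap, which encodes the titin cap telethonin, at −0.46 ± 0.13 (adjusted p = 0.0481). Myh6 at 0.01 ± 0.06, Tnnt2 at −0.05 ± 0.06, Ryr2 at −0.09 ± 0.09, Atp2a2, the calcium pump of the reticulum, at 0.01 ± 0.07 and Pln, its inhibitor, at −0.10 ± 0.07 did not pass. The next brightest Atp2a2 probe sets gave −0.07 ± 0.07 and −0.0004 ± 0.06, but dimmer ones gave −0.28 ± 0.12, −0.46 ± 0.20 and −0.38 ± 0.28. The difference of Atp2a2 is therefore not settled by its brightest probe set. Other Pln probe sets gave −0.19 ± 0.08 and −0.10 ± 0.07. Nebl, the nebulin relative of heart Z-discs, was the other fall of the sarcomere list, at −0.32 ± 0.08 (adjusted p = 0.0317). The calls of both falls ended in both other scalings of the arrays. Tcap also lost its call without W1, W2, W3, W6, G1, G2, G3, G5 or G6 (−0.57 to −0.39) or G4D sham array 5 and Nebl without W1, W2, W3, W6, G3 or G5 (−0.36 to −0.28).

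**Figure D3:**
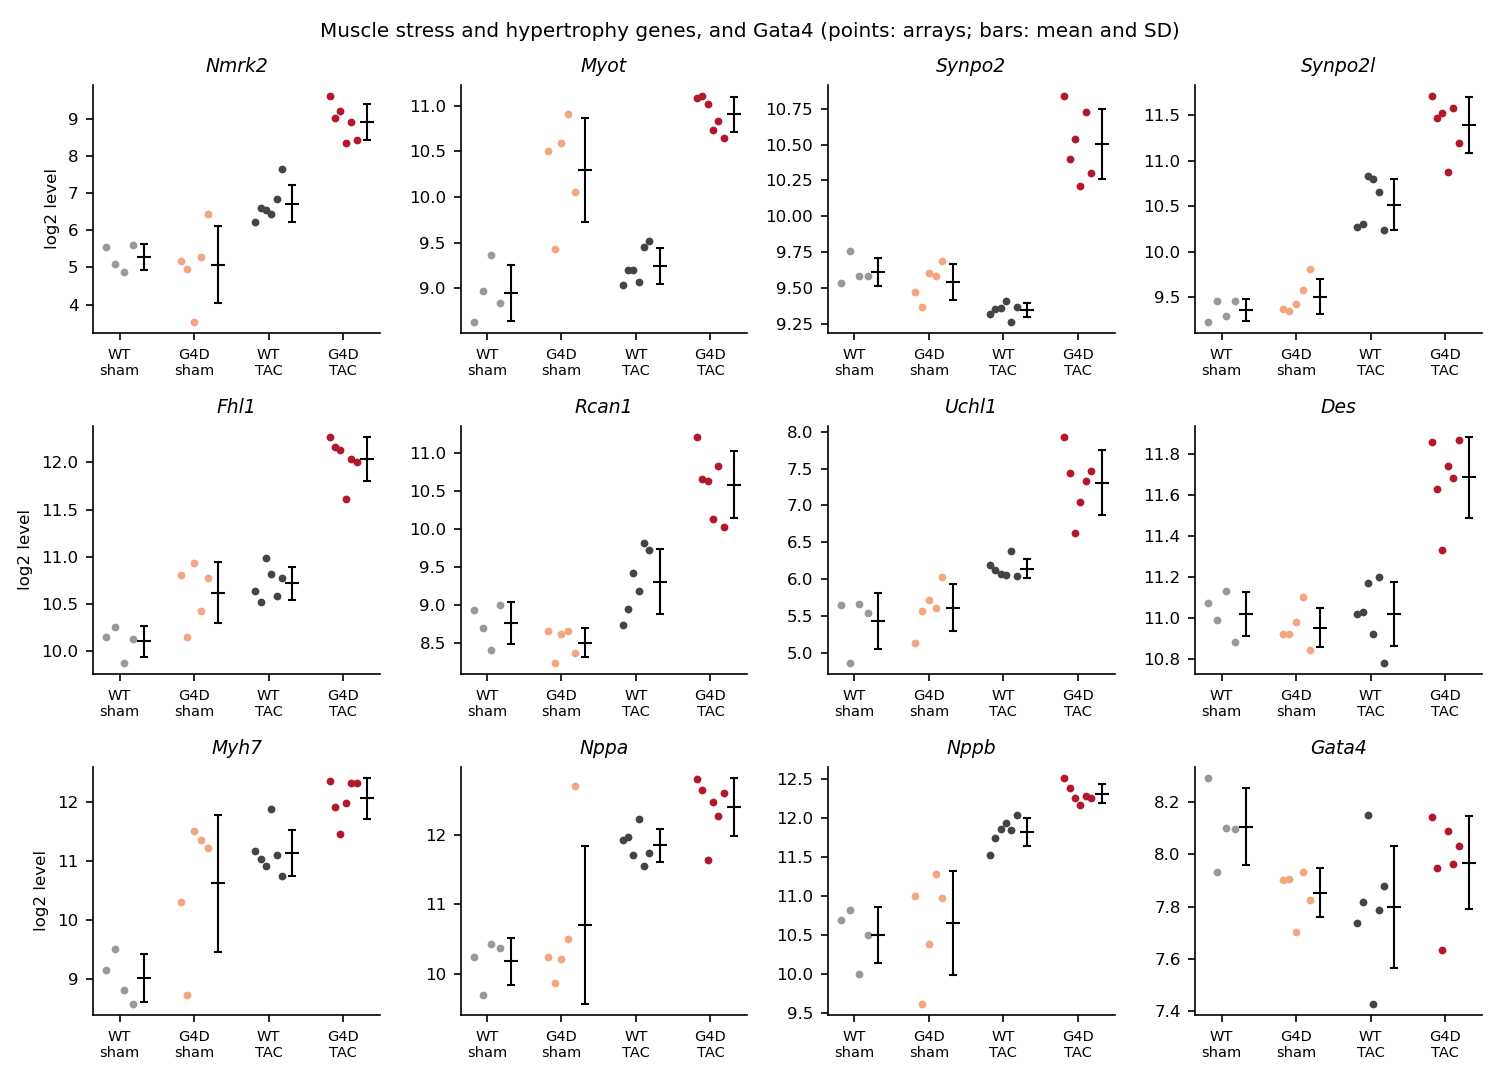
Log2 level (y axis) of 11 muscle genes and Gata4 on each array of the 4 groups (x axis), with the mean and SD of each group. Nmrk2, Myot, Synpo2, Synpo2l, Fhl1, Rcan1, Uchl1, Des and Nppb are apart between the TAC groups, while Myh7, Nppa and Gata4 overlap.

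Chaperones of muscle were higher in part, with 4 of 17 called higher (23.5%, against 2.09% of all genes), 1 lower (5.88%, against 1.27%) and a median of 0.19. Hspb1, a small heat shock protein that guards actin and desmin, was 11.31 to 11.72 (median 11.53) in wild-type TAC and 11.89 to 12.12 (median 11.99) in G4D TAC, and rose by 0.48 ± 0.08 (adjusted p = 0.000946). Hspb8, a small heat shock protein with a part in clearing damaged filamin, rose by 0.35 ± 0.07 (adjusted p = 0.00722). On their brightest probe sets neither gene overlapped between the groups. Other Hspb8 probe sets gave 0.12 ± 0.11 and 0.17 ± 0.10. Hspa1a, the inducible member of the 70 kDa family, stood at 0.63 ± 0.15, and Hsp90aa1 rose by 0.45 ± 0.11. Hspa1a entered the test only through its G4D TAC arrays, since its mean lay between 4.25 and 4.31 in the other 3 groups, below the filter at 4.35. Its call, counted among the 4, is therefore no support for a rise of the list. Unc45b, which folds myosin, fell by 0.32 on the log2 scale. Hspa1a (0.57 to 0.74) lost its call without W1, W2, W3, G1 or G6, and Hsp90aa1 (0.41 to 0.51) without W1, W2, W3, W6, G1, G2, G3 or G5. Unc45b (−0.38 to −0.27) lost it without W1, W2, W3, W4, W5, W6, G1, G2, G5 or G6. Of the rises 2 were called without wild-type TAC array 1, 2 or 3, and none of the list was called in the values as deposited. Trim63, a ubiquitin ligase that breaks down sarcomere proteins, was 10.21 to 10.61 (median 10.34) and 9.88 to 10.06 (median 10.03). It was lower on every G4D array, at −0.36 ± 0.09 (adjusted p = 0.0231), and its call ended without W3, W6 or G3 (−0.39 to −0.31).

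Genes of cell death and survival differed singly. Bcl2, which holds mitochondria closed against apoptosis and is reported as a direct Gata4 target, was 5.37 to 6.08 (median 5.69) in wild-type TAC and 6.31 to 6.69 (median 6.48) in G4D TAC. It was higher, not lower, in G4D, with no overlap, and rose by 0.78 ± 0.15 (adjusted p = 0.00367). Bcl2l1, its relative Bcl-xL, stood at −0.10 ± 0.13 (adjusted p = 0.875). Of 26 pro-apoptotic genes 2 were called higher (7.69%, against 2.09% of all genes) and 1 lower (3.85%, against 1.27%), with a median of −0.03: Casp12, a caspase of the endoplasmic reticulum, at 0.65 ± 0.14 (adjusted p = 0.0119) without overlap, Tnfrsf12a, the receptor for TWEAK, at 0.66 ± 0.17, and Dapk1, a death-associated kinase, at −0.26 ± 0.07. Tnfrsf12a (0.53 to 0.77) lost its call without W1, W2, W3, G1, G2, G3 or G5, and Dapk1 (−0.30 to −0.22) without W1, W2, W3, W4, W5, G1, G2, G3 or G5. Bcl2 alone of these genes was called in the values as deposited.

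Of 16 genes reported as direct targets of Gata4, 1 was called higher (6.25%, against 2.09% of all genes), Bcl2, and 2 lower (12.5%, against 1.27%), with a median of 0.00. Agtr1a, the main angiotensin receptor, was 7.78 to 8.40 (median 8.24) in wild-type TAC and 7.26 to 7.71 (median 7.47) in G4D TAC, and differed by −0.68 ± 0.14 (adjusted p = 0.00654) with no overlap. Fgf16, a growth factor of heart muscle, stood at −0.52 ± 0.14 (adjusted p = 0.0409) and lost its call without W1, W2, W3, W6, G1, G2, G3, G5 or G6 (−0.63 to −0.45). Both lost their calls in the values as deposited and after median centring. Of 20 cardiac transcription factors 1 was called, Hand2, at −0.42 ± 0.11 (adjusted p = 0.0372), and its call ended without W3, W5, W6, G1, G2, G3, G5 or G6 (−0.46 to −0.32). Tbx5, a partner of Gata4, stood at −0.59 ± 0.18 (adjusted p = 0.0806), Nkx2-5 at 0.14 ± 0.10 and Mef2c at 0.09 ± 0.10.

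Of 20 genes of IGF and insulin signalling 3 were called higher (15%, against 2.09% of all genes) and 1 lower (5%, against 1.27%), with a median of 0.00. Igf1, the local growth factor of muscle and fibroblasts, rose by 0.67 ± 0.18 (adjusted p = 0.0386), and the binding proteins Igfbp6 and Igfbp7 rose by 0.50 ± 0.11 and 0.34 ± 0.09. Akt1, the kinase downstream of the insulin and IGF receptors, was 9.33 to 9.49 (median 9.37) in wild-type TAC and 8.58 to 9.12 (median 8.96) in G4D TAC, a difference of −0.48 ± 0.08 (adjusted p = 0.00229) with no overlap. The receptor gene Igf1r could not be settled: its brightest probe set gave −0.02 ± 0.25, and a pair of dimmer ones 0.51 and 0.52 (unadjusted p = 0.000886 and 0.000839). The call of Igf1 (0.56 to 0.77) ended without W2, W3, W5, W6, G1, G2, G3, G5 or G6, and that of Igfbp7 (0.29 to 0.40) without W1, W3, W6, G1, G2, G3, G5 or G6. The count of lower genes became 3 without G4D TAC array 4 and 2 without wild-type TAC array 4 or 5.

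Fgf6, a growth factor of muscle, was 3.13 to 4.66 (median 4.35) and 5.32 to 6.26 (median 5.67) and rose by 1.68 ± 0.26 (adjusted p = 0.00082). Its mean was below 4.35, the lowest mean level admitted to the test, in the other 3 groups, so it entered the test only through its G4D TAC arrays. Its call is no support for a rise of its list, and its size is imprecise. Fgf13, a modulator of sodium channels, stood at −0.37 ± 0.09 and lost its call without W3, G1 or G5. Nfatc2, a target of calcineurin, rose by 0.44 ± 0.11 and lost its call without W4, W5, W6, G2, G4, G5 or G6 (0.35 to 0.49), while the catalytic subunit gene Ppp3ca stood at −0.08 ± 0.08. Egln3, a prolyl hydroxylase that marks hypoxia-inducible factors for decay, rose by 0.90 ± 0.16 (adjusted p = 0.00287) without overlap, the 1 call among 24 genes of angiogenesis and hypoxia, with Vegfa at −0.05 ± 0.09. Grk5, a kinase that silences adrenergic receptors, rose by 0.52 ± 0.09 (adjusted p = 0.00308).

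Genes of fatty acid oxidation, the main fuel path of adult heart, lay on the lower side in G4D. Of 32 tested members 8 (25.0%) were called lower, against 1.27% of all genes, and 0 higher, all 32 differences were below 0, and the median was −0.27. The mean level of the list was 9.67 to 9.92 in wild-type TAC and 9.21 to 9.65 in G4D TAC, with no overlap. Acot1, which splits fatty acyl-CoA in the cytosol, was 5.30 to 5.88 (median 5.53) and 2.67 to 4.85 (median 3.88), with no overlap. It differed by −1.58 ± 0.35 (adjusted p = 0.0139), and its G4D mean is below 4.35, so the size is imprecise. Acaa2, the thiolase of the last step of beta-oxidation, was 10.94 to 11.27 (median 11.09) and 9.81 to 10.91 (median 10.52), lower on every G4D array, with a difference of −0.63 ± 0.12 (adjusted p = 0.00397). Ucp3, the uncoupling protein of muscle mitochondria, was 6.19 to 7.10 (median 6.71) and 4.74 to 6.30 (median 5.89) and stood at −1.03 ± 0.25 (adjusted p = 0.0251).

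The other calls of the list were enzymes of the same pathway in mitochondria: Eci1 at −0.47 ± 0.10, Mlycd, which removes the brake malonyl-CoA, at −0.40 ± 0.10, Hadha, of the trifunctional enzyme, at −0.38 ± 0.08, Decr1 at −0.36 ± 0.10 and Hadh at −0.34 ± 0.07. The regulators Ppargc1a at −0.50 ± 0.31 (adjusted p = 0.558) and Ppara at −0.38 ± 0.11 (adjusted p = 0.069) did not pass. The count of 8 became 15 without G4D TAC array 4 and 5 without G4D TAC array 1 or 3 or wild-type TAC array 1, 3 or 5. Ucp3 (−1.16 to −0.84) lost its call without W1, W3, W5, G1 or G3. Mlycd (−0.48 to −0.35) did so without W1, W2, W3, W5, G1, G2, G3 or G5, and Decr1 (−0.42 to −0.27) without W1, W2, W3, W4, W5, W6, G1, G2, G3, G5 or G6. In the values as deposited the median was −0.10 where that of all genes was 0.14, and Acot1 alone was called, as after median centring.

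The citric acid cycle and the respiratory chain had few calls. Of 39 oxidative phosphorylation genes 0 were called by limma and 3 had an unadjusted p under 0.05, with a median of −0.08 that turned to 0.04 in the values as deposited. Sdha of complex II stood at −0.16 ± 0.08 and Ndufs4 of complex I at −0.20 ± 0.08. Of 21 genes of the citric acid cycle and pyruvate use 1 was called, Idh2, which makes NADPH in mitochondria, at −0.33 ± 0.08 (adjusted p = 0.0316). It lost its call without W1, W2, W3, W6, G1, G2 or G6 (−0.38 to −0.29), while 2 were called without G4D TAC array 4 or wild-type TAC array 4.

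Of 21 glycolysis genes 3 were called higher (14.3%, against 2.09% of all genes), 2 lower (9.52%, against 1.27%) and 16 not at all, and the median was 0.10. Pfkp, the platelet form of phosphofructokinase, was 8.29 to 8.70 (median 8.49) in wild-type TAC and 9.13 to 9.90 (median 9.36) in G4D TAC and rose by 0.95 ± 0.13 (adjusted p = 0.000263). Gyg, glycogenin, which primes glycogen, was 10.18 to 10.34 (median 10.27) and 10.82 to 11.41 (median 11.14) and rose by 0.86 ± 0.10 (adjusted p = 2.4e-05). Neither gene overlapped between the groups, and both were called in the values as deposited. Ldha, lactate dehydrogenase A, rose by 0.28 ± 0.07 with a call that ended without W1, W2, W5, W6, G1, G2, G3, G5 or G6 (0.26 to 0.32). Eno3, the muscle enolase, was lower on every G4D array at −0.39 ± 0.07 (adjusted p = 0.00198). Pfkfb2, the heart form of the enzyme that sets phosphofructokinase activity, stood at −0.48 ± 0.12 (adjusted p = 0.0251), with a call that ended without W5, G1, G2, G3 or G6 (−0.54 to −0.41). Its next brightest probe set gave −0.07 ± 0.09, and dimmer ones −0.50 ± 0.28 and −0.37 ± 0.24. Fbp2, whose promoter is shown above, was 6.85 to 7.21 (median 7.0) and 4.73 to 6.45 (median 6.06), with array 1 far below the other G4D arrays, and differed by −1.12 ± 0.21 (adjusted p = 0.00315). Of the energy-buffer genes, Ckb, the brain creatine kinase of fetal heart, rose by 0.43 ± 0.09 (adjusted p = 0.0085) and Ak4, a mitochondrial adenylate kinase, by 0.50 ± 0.11 (adjusted p = 0.0104). Ak1, the cytosolic one, stood at −0.28 ± 0.08, a call that ended without W1, W2, W3, W4, W5, W6, G1, G2, G3, G5 or G6 (−0.32 to −0.22).

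Potassium channel genes were lower in 13 of 14 cases, where 51.3% of all tested genes were below 0. Of the 14 genes 5 were called lower (35.7%, against 1.27% of all genes) and 0 higher, with a median of −0.38. Kcnj3 and Kcnj5, the subunits of the acetylcholine-gated channel that is richest in atria, were 6.97 to 7.61 (median 7.27) and 6.27 to 7.08 (median 6.65) in wild-type TAC and 5.79 to 6.71 (median 6.19) and 5.43 to 6.25 (median 5.73) in G4D TAC. Neither overlapped between the groups, and they stood at −1.07 ± 0.24 (adjusted p = 0.0135) and −0.84 ± 0.21 (adjusted p = 0.0251). Kcnd2, of the fast transient outward current, stood at −0.65 ± 0.17, and Kcnq1 and Kcne1, of the slow delayed rectifier, at −0.42 ± 0.10 and −0.62 ± 0.15. Other atrial markers were not called, with Myl7 at 0.57 ± 0.90 and Myl4 at 0.24 ± 0.69 (errors of 0.45 and 0.31 without G4D sham array 5), and the mean level of the atrial list was 6.73 to 6.96 and 6.51 to 7.30. Kcnj5 (−0.93 to −0.76) lost its call without W1, W2, W3, G1, G2, G3 or G5, and Kcnd2 (−0.75 to −0.55) without W1, W2, W3, W5, W6, G1, G3, G4 or G5. Kcnq1 (−0.46 to −0.36) lost it without W1, W2, W3, G1 or G5, and Kcne1 (−0.71 to −0.51) without W6, G1 or G2. The count of 5 became 1 without G4D TAC array 1, 2 without G4D TAC array 5 or wild-type TAC array 1, 2 or 3, and 3 without G4D TAC array 2 or wild-type TAC array 6. In the values as deposited none of the 5 was called.

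Calcium handling genes gave 1 call in 20, Cacna1c, the pore of the L-type calcium channel, which was 8.87 to 9.08 (median 8.97) in wild-type TAC and 8.49 to 8.77 (median 8.56) in G4D TAC, lower on every G4D array, at −0.38 ± 0.08 (adjusted p = 0.0134). Of 13 intercalated disc genes Xirp1 rose and Dsg2, the desmoglein of heart desmosomes, fell. Dsg2 was 8.68 to 9.23 (median 8.89) and 8.06 to 8.25 (median 8.12), a narrow range below all wild-type arrays, and differed by −0.78 ± 0.12 (adjusted p = 0.000677). Pkp2 of the same desmosomes stood at 0.13 ± 0.08 and the connexin gene Gja1 at −0.06 ± 0.11. The calls of Cacna1c and Dsg2 ended in the values as deposited.

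Other large falls had no list in common. Efnb3, an ephrin ligand on the cell surface, was 7.83 to 8.47 (median 8.10) in wild-type TAC and 6.01 to 7.21 (median 6.41) in G4D TAC. No array overlapped, and the difference was −1.70 ± 0.18 (adjusted p = 1.52e-05), the largest fall under the naming rule. Rnf207, a RING finger protein of heart muscle that acts on repolarization, was 8.32 to 8.79 (median 8.65) and 7.06 to 8.12 (median 7.42), at −1.11 ± 0.16 (adjusted p = 0.00048). Colec11 was 7.04 to 7.64 (median 7.21) and 5.81 to 6.34 (median 6.10), at −1.19 ± 0.22 (adjusted p = 0.00292). Klhdc8a, a kelch protein, stood at −0.99 ± 0.18, Pde1c, a phosphodiesterase that calmodulin switches on, at −0.96 ± 0.18, and Car14, a membrane carbonic anhydrase, at −0.93 ± 0.13. Gpr22, an orphan receptor of heart, stood at −0.89 ± 0.16, and Chd6, a chromatin remodeller, at −0.80 ± 0.19, with no overlap in any of the 5. The call of Chd6 (−0.89 to −0.71) ended without W1 or G1. Among the rises with no list, Bex1, a small adaptor protein of neurons and failing heart, was 6.44 to 7.17 (median 6.76) and 8.12 to 8.75 (median 8.30) and rose by 1.57 ± 0.28 (adjusted p = 0.00292). Igsf1, an immunoglobulin-like membrane protein, rose by 1.2 ± 0.20 (adjusted p = 0.00171). Larger falls outside the rule were those of the clone-type genes Gm19277 at −2.39 and Gm26782 at −1.71 and, with overlapping arrays, Retnla at −1.67 and Ces1d at −1.30, chosen after their values were seen.

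Genes of MHC class II, which show peptides to T cells, had 3 of 7 called lower (42.9%, against 1.27% of all genes), 0 higher and a median of −0.63. H2-Ab1, a beta chain, was 7.83 to 8.79 (median 8.26) in wild-type TAC and 6.34 to 7.82 (median 7.55) in G4D TAC, and stood at −0.91 ± 0.22 (adjusted p = 0.0224). Its groups were just apart, with G4D array 2 far below the rest. H2-Aa, the alpha chain, stood at −0.96 ± 0.22 (adjusted p = 0.0154) and Cd74, the invariant chain, at −0.76 ± 0.20 (adjusted p = 0.0339), both with overlap. Macrophage markers, which some of the same cells carry, had mean levels of 7.21 to 8.06 and 7.23 to 7.89, and their part in these falls was not tested. The calls of H2-Ab1 (−1.0 to −0.70) ended without W2 and that of Cd74 (−0.85 to −0.59) without W2, W3, W4, W5, W6, G2 or G4. Of the 7 genes 1 was called without wild-type TAC array 2, and none was in the values as deposited. Interferon-induced genes had a median of −0.35, with 0 of 13 called by limma and 5 lower at an unadjusted p under 0.05. Iigp1, an interferon-induced GTPase outside that list, was 8.43 to 9.14 (median 8.56) and 7.36 to 8.26 (median 7.89) and stood at −0.78 ± 0.16 (adjusted p = 0.00818). Colec12, a scavenger receptor, was the 1 call of 13 complement genes, at 0.48 ± 0.13, and lost it without W2, W3, W6, G2, G3, G5 or G6 (0.41 to 0.54). That list does not hold Colec11, whose called fall is given above.

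**Figure D4:**
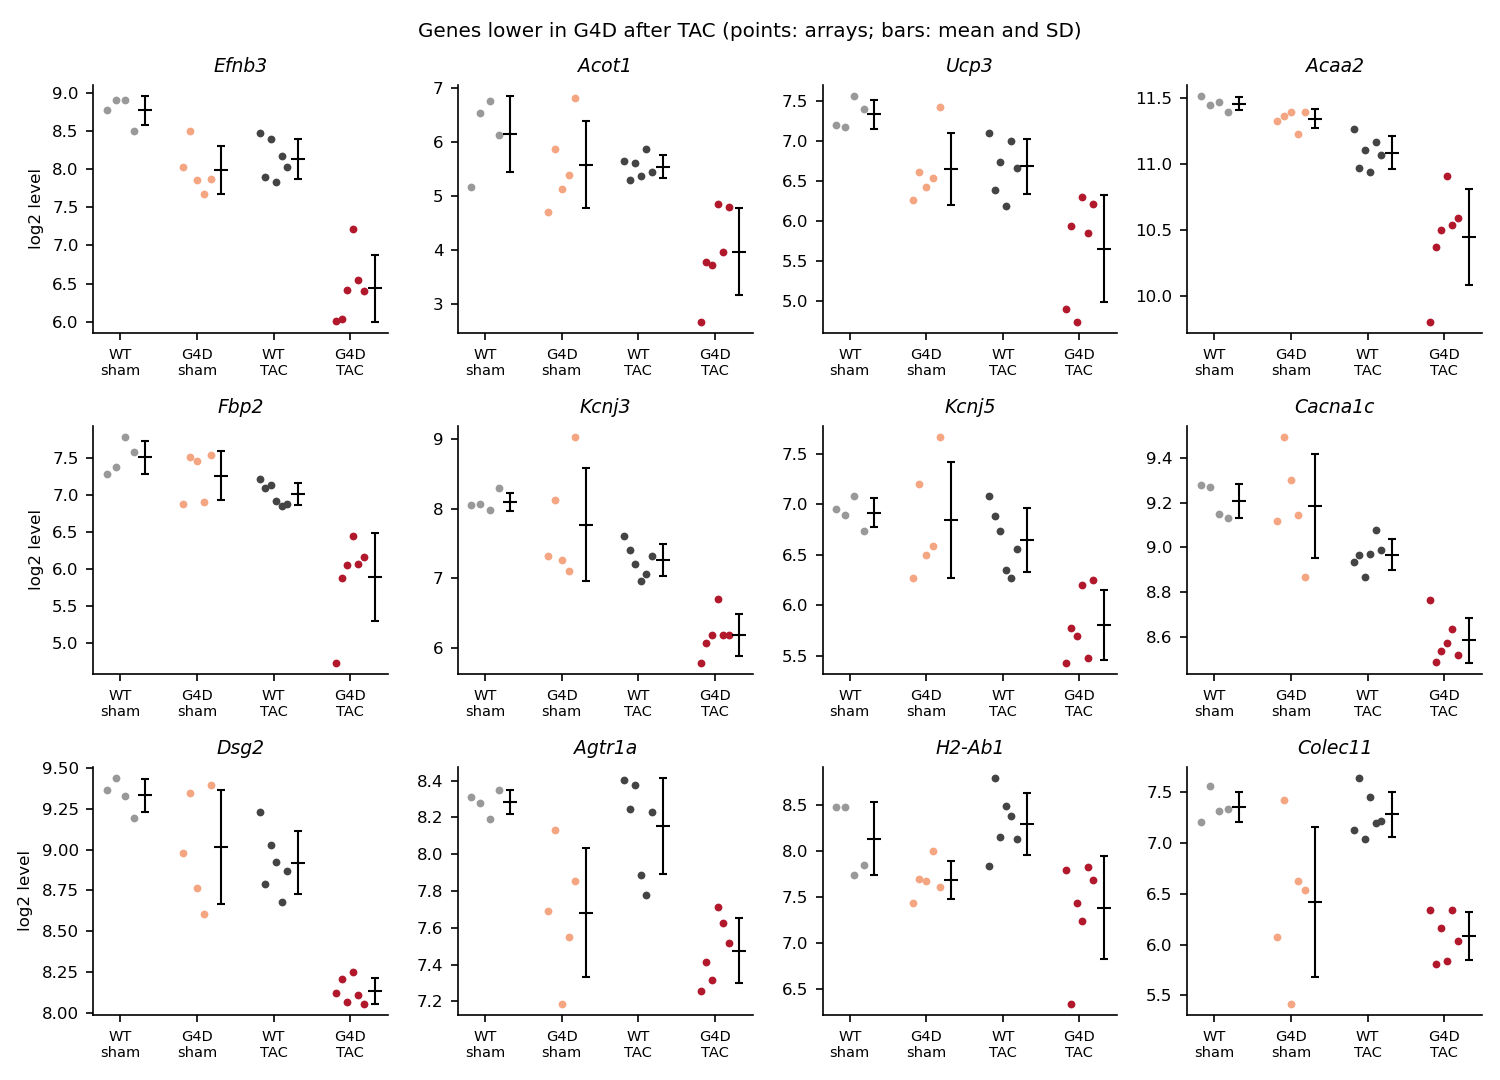
Log2 level (y axis) of 12 genes lower in G4D after TAC on each array of the 4 groups (x axis), with the mean and SD of each group. Efnb3, Acot1, Acaa2, Fbp2, Kcnj3, Kcnj5, Cacna1c, Dsg2, Agtr1a, H2-Ab1 and Colec11 are apart between the TAC groups and Ucp3 overlaps.

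Several lists held no call. None of 16 mitosis genes and 20 DNA replication genes was called by limma, with Top2a at −0.27 ± 0.35 and Tyms at −0.26 ± 0.36, and 1 and 2 had an unadjusted p under 0.05. Immediate early genes (22), genes of endoplasmic reticulum stress (21), antioxidant genes (21), chemokines (14), the interleukin-6 family (13), Wnt genes (15), D cyclins and their inhibitors (11) and clock genes (17) had 0 calls by limma, and 1, 3, 3, 1, 4, 3, 3 and 2 with an unadjusted p under 0.05. Herpud1 of the reticulum stood at −0.54 ± 0.17, the Wnt receptor gene Fzd7 at 0.52 ± 0.15 (adjusted p = 0.0112 with the 12 TAC arrays fitted alone), the clock gene Hlf at −0.77 ± 0.27 and the cell cycle inhibitor Cdkn1a at 0.68 ± 0.36. A difference that misses the threshold is not shown to be absent.

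**Figure D5:**
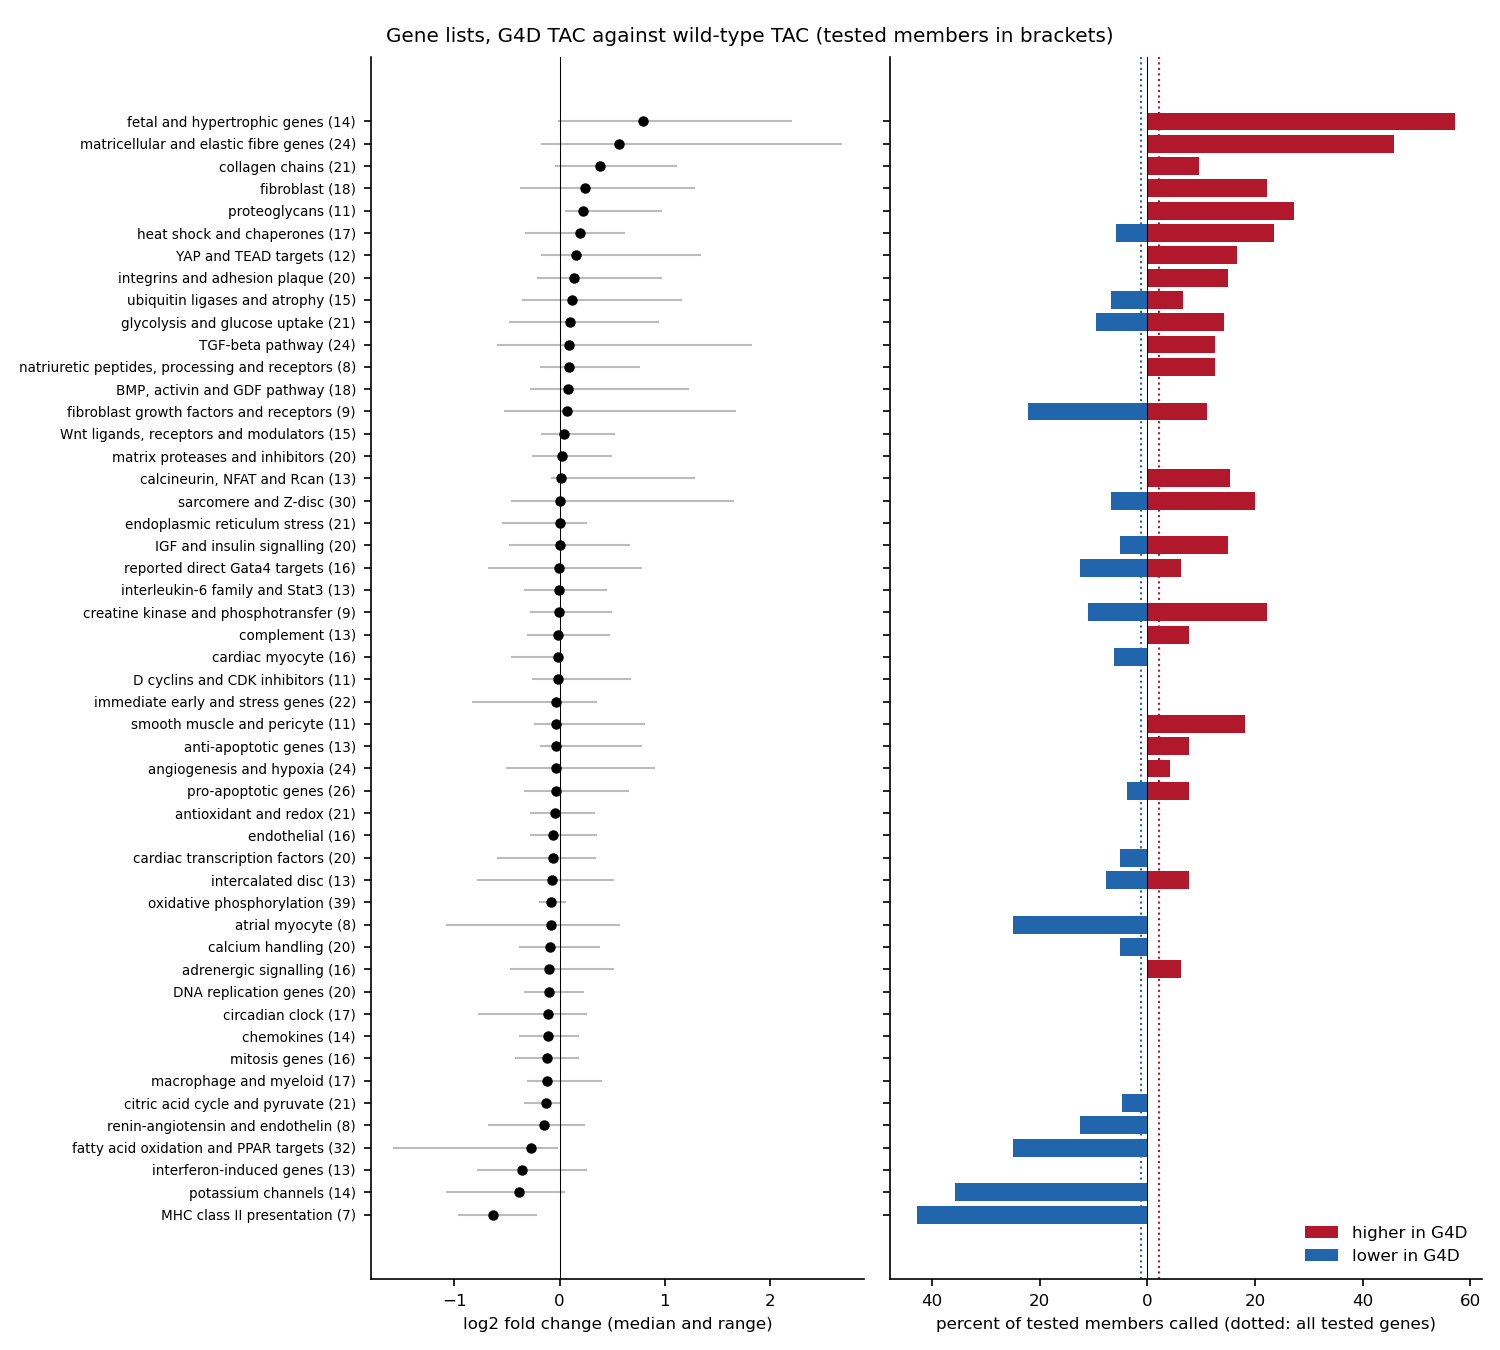
Left, the median (point) and range (line) of the log2 difference, G4D TAC less wild-type TAC, over the tested members of each list with at least 5 of them. Right, the percent of members called higher (red, to the right) or lower (blue, to the left), beside dotted lines at 2.09% and 1.27% for all tested genes. The lists of fetal and hypertrophic genes, of matricellular and elastic fibre genes and of class II genes reach 57.1%, 45.8% and 42.9%. The lists were written with earlier results of these data known.

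At baseline few genes were called. The sham groups share no array with the TAC groups, and 7 of 13279 genes (0.0527%) were called between them, of which Ccn2, Myot, Klhdc8a and Gm26782 were also called after TAC. This count was 27 without G4D sham array 2, 1 without wild-type sham array 1 or 2, 15 with the filter at the 60th percentile, 3 in the values as deposited and 4 after median centring. The genes called after TAC were chosen for a large difference there, so a smaller one in sham comes in part with the choice, and the following values are a description. The 278 genes higher after TAC had a median difference of 0.53 there and 0.13 in sham, and the 168 lower genes −0.48 and −0.17. The sign was the same in sham in 205 of the 278 (73.7%) and 140 of the 168 (83.3%), where 48.0% of all tested genes were above 0 in sham. These shares move with the scaling: in the values as deposited, where the median of all genes in sham was −0.28, 26.3% of the 278 were above 0 against 8.65% of all genes, and 98.8% of the 168 below 0. Of the 446 genes 112 had an unadjusted limma p under 0.05 in sham with the same sign and 8 with the opposite sign. Over all 13279 genes these counts were 653 and 420. In 432 of the 446 the difference was larger in size after TAC, which held for 6407 of all 13279 genes.

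In some genes the difference was of similar or larger size without the load. Ccn2 differed by 1.31 ± 0.23 in sham and 1.34 ± 0.20 after TAC, Myot by 1.35 ± 0.21 and 1.66 ± 0.18, Bex1 by 1.5 ± 0.33 and 1.57 ± 0.28, and Klhdc8a by −1.67 ± 0.21 and −0.99 ± 0.18. In Agtr1a the values were −0.60 ± 0.16 and −0.68 ± 0.14, and in Acta2 0.84 ± 0.23 and 0.81 ± 0.20. Other genes had estimates of small size in sham, none of them called, though errors as large as these do not show equality. Cilp stood at 0.24 ± 0.36, Nmrk2 at −0.21 ± 0.40, Tgfb2 at 0.26 ± 0.24 and Ltbp2 at −0.03 ± 0.35. Bcl2 stood at 0.02 ± 0.17, Des at −0.07 ± 0.11 and Cacna1c at −0.02 ± 0.10. Thbs4 lay between, at 1.04 ± 0.30 in sham, where wild type ran from 5.34 to 5.79 and G4D from 5.61 to 7.52.

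A test of the change itself, the difference after TAC less that in sham, called 2 genes of 13279 (0.0151%). An unadjusted p under 0.05 was found in 1110 of all 13279 genes and in 242 of the 446, which were chosen on a part of this contrast. Synpo2 had −0.07 ± 0.11 in sham and 1.16 ± 0.09 after TAC, a change of 1.23 (adjusted p = 0.000356), and it stayed called without any 1 of the 21 arrays (1.16 to 1.29). Uck2, a kinase that salvages uridine, was named for its test and not by the naming rule, after its values were seen. It was 6.97 to 8.36 in wild-type TAC and 8.26 to 8.97 in G4D TAC and stood at 1.11 ± 0.20 after TAC and −0.74 ± 0.23 in sham. Its change of 1.85 (adjusted p = 0.0358) was called with 7 of the 21 arrays left out singly (1.72 to 2.0 over all 21) and not with the other 14, and not without the filter on dim probe sets (adjusted p = 0.104). The count of 2 became 28 without G4D TAC array 4 and ran from 1 to 5 without any other array (5 without G4D TAC array 2). It was 6 in the values as deposited, 10 after median centring and 14 with the filter at the 60th percentile. For the remaining called genes a difference between the effect after TAC and that at baseline is not shown.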

How the data were processed

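Expression was measured on 21 single-colour arrays. The deposited values were made by the authors with PLIER, per the submitters' processing notes, which give no version. That they are log2 values was read from their range, and any normalization by the authors is not given in the sources used here. The table held 45101 probe sets, of which 64 were controls, 34945 had 1 gene symbol, 932 several and 9160 none.

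The arrays were quantile normalized, and a gene (18193 symbols) was read by its brightest probe set if that probe set's mean was at or above the 40th percentile (4.35), which left 13279 genes. All 4 groups entered 1 limma fit (limma 3.58.1, R 4.3.3, 17 residual degrees of freedom), and p-values were adjusted over all tested genes. The steps were tested on simulated data. The number of arrays limits the precision.

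Genes were grouped in 56 lists (12 mark cell types, 44 hold functions) of 971 genes, of which 900 had a probe set and 810 were tested. Named genes are the 15 largest rises and 15 largest falls without overlap, clone names left out, then up to 4 called members of each list or, with none called, 2 given as values, and a fixed set that includes Gata4, Nppa, Igf1r and Bcl2. The lists, their members and the comparison were chosen with earlier results of these data known. Some listed genes were not analysed here. Of the 106 named called genes 68 had other probe sets, 104 of them above the filter, and 98 of these 104 had the same sign. A shared sign does not mean a similar size, as in Pdlim7, where other probe sets gave 0.09 and 0.06.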

Additional observations from a re-analysis of the deposited data

Results flagged for a closer look

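A single array stood apart from the other 5 of its group in 34 of 440 checks of named genes, list means and array measures, each by a gap to its nearest neighbour that is large for the range of the group. Chance alone gives about 1 in 20 such checks. All values are log2 levels unless another measure is named.

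In wild-type TAC, array 4 was high in Cilp (8.02), Postn (11.11), Myh7 (11.88), Col6a2 (10.37), Iigp1 (9.14) and the mean of the YAP and TEAD targets (8.34). Array 6 was low in Fam124a (5.34) and stood apart in Npr3 (6.11), Hand2 (8.87), the actin probe sets' 3' level less their 5' level (0.113) and the mean of the fibroblast growth factor list (6.33). Array 2 stood apart in Gata6 (7.75) and the ubiquitin ligase list (9.24), array 1 in Usp18 (4.42) and array 3 in the calcium handling list (9.23).

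In G4D TAC, array 4 was low in Col8a1 (9.32), Postn (9.90), Vcan (7.17), Fap (7.46) and the means of the collagen (8.16), intercalated disc (9.10) and renin-angiotensin lists (6.78), and high in the mean of oxidative phosphorylation (11.79). Array 1 stood apart in S100b (4.75), Chd6 (5.77), Fbp2 (4.73) and the means of the sarcomere (11.4), calcineurin (7.73) and interleukin-6 lists (7.08). Array 6 did so in Casp12 (7.50), P4hb (10.49) and the immediate early list (7.35), and array 3 in Atp2a1 (4.88) and Trim63 (9.88).

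The genotype difference after TAC differed from that in sham, by the interaction term in limma, in Synpo2 (1.23, adjusted p = 0.000356) and in Uck2 (1.85, adjusted p = 0.0358).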

How the results depend on the processing

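The count of 446 called genes, 278 higher and 168 lower, became 64 (56 and 8) in the values as deposited and 184 (153 and 31) after centring each array on its median. With the 12 TAC arrays normalized and fitted alone 371 genes were called, of which 111 were lower, and with array weights 828 (460 and 368). With the replicate number as a block 106 were called (82 and 24). Same-numbered arrays correlated at −0.359 to 0.227 in their deviations from the group means. These values show no pairing by number but cannot exclude it, and the labels do not say whether the numbers pair samples. With 1 array left out the count ran from 250 to 648, that of higher genes from 167 to 350 and that of lower genes from 83 to 298. The total moved by over 1.5 times without wild-type TAC array 1 (281) or 3 (282) or G4D TAC array 1 (250). The count of lower genes did so without wild-type TAC array 1 (85), 3 (89) or 6 (102) or G4D TAC array 1 (83), 2 (111), 4 (298) or 5 (107). The fit of the 12 TAC arrays alone gave 359, admitting dim probe sets 349, a stricter cut at the 60th percentile 495, a floor 449, the mean of all probe sets of a gene 414, and a trended, robust variance 524. Without G4D TAC arrays 3 and 4, an alternative chosen after seeing the data, 543 genes were called. Of the 106 named called genes 64 stayed called with any 1 array left out and 27 in every other setting. Igf1r turned to 0.53 with the 12 arrays normalized alone, where another of its probe sets was the brightest.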

Other observations

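Gata4 lies on chromosome 14, where 23 of 456 tested genes (5.04%) were called after TAC, against 3.36% of all tested genes. Chromosome 12 stood above it at 5.24%, chromosomes 13 and 3 were at 4.46% and 4.27%, and the lowest, chromosome 4, was at 2.21%. Of the 20 tested genes on either side of it 3 of 40 (7.50%) were called, Atp8a2, Spryd7 and Fam124a. What sets these values was not tested.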
